A study of Drosophila melanogaster with 2 samples.

Results

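The nuclear genes for subunits of the oxidative phosphorylation (OXPHOS) machinery were examined for binding of the transcription factor Pox neuro (Poxn) in Drosophila melanogaster embryos. They were taken as the protein-coding genes on the chromosome arms whose annotated symbol starts with ND-, Sdh, UQCR-, ATPsyn, or COX and a digit, which gave 88 of 13945 genes. The symbol rule itself uses no measured value, but it was proposed with earlier results of these data known. It included 40 genes of complex I, 7 of complex II, 9 of complex III, 16 of complex IV, 15 of complex V and Sdhaf3, which encodes an assembly factor of complex II. Of the 88 genes, 24 are duplicates by symbol, ending in L or in L and a digit (for example ND-24L beside ND-24). The other 64 include ND-MNLL, whose final L is part of the name of the original subunit.

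The data are from chromatin immunoprecipitation and sequencing (ChIP-seq) of whole embryos aged 0 to 24 h from a fly strain that carries a Poxn-eGFP fusion. Chromatin was fragmented by sonication. The sample descriptions give the antibody as one against GFP, and the antibody field gives it as Poxn. The study had 1 group with 2 biological replicates, and the possible control that the labels point to was not used here. Whole embryos of this age span mix all cell types and nearly all of embryogenesis, so a peak cannot be placed in a tissue or stage. No comparison between groups of samples was possible, and the results are counts and values beside those of all genes, with no test. The depth of the libraries is unknown. The lists hold no expression values, so the label of whole embryos could not be checked against marker genes.

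Poxn is a paired-domain (Pax family) protein, known in flies for the specification of chemosensory organs. Oxidative phosphorylation passes electrons from NADH through complex I (NADH:ubiquinone oxidoreductase), or from succinate through complex II, to ubiquinone. Complex III (the cytochrome bc1 complex) and complex IV (cytochrome c oxidase) pass them on to oxygen, and complex V (ATP synthase) uses the resulting proton gradient to make ATP. Most subunits are encoded in the nucleus and a few in the mitochondrial genome, and only nuclear genes are described here.

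A gene was counted as having a peak where the summit of a thresholded peak lay within 500 bp of any of its annotated transcription start sites (TSSs). The main list was that of the pair of replicates, with 1488 peaks on the dm6 build. Each list also has a ranked version of many more candidates, 146020 for the pair, and the highest candidate within 500 bp gives a value for genes without a peak. Signal is the authors' enrichment value and ranks peaks within a list only. The authors' irreproducible discovery rate (IDR) measures how well the ranks of a peak match between 2 lists, and a −log10 IDR of 2 is an IDR of 0.01.

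The regions printed here are some of those in which a summit lay between a TSS of an OXPHOS gene and a TSS of a neighbouring gene read in the opposite direction. Not all peaks described below were placed in this way. For ND-SGDH, ND-51, ATPsynCF6 and ND-42, all bases between the TSSs of both genes are shown, 5′ to 3′ on the strand of the OXPHOS gene, so that each run starts beside the TSS of the neighbour and ends beside that of the OXPHOS gene. For ND-ASHI, which had the highest signal, and for COX8, 201 bp around the summit are shown. The ND-ASHI summit lay in an intron of its neighbour, and COX8 had a peak in the conservative list but not in the list of the pair. Capitals mark matches to the words TTATATAA (a form of the element found at fly nuclear respiratory genes, called NRG) and CAGCTG (an E-box). Sequence is from the RefSeq assembly of the dm6 release.
ND-ASHI, minus strand of chrX:6679287-6679487: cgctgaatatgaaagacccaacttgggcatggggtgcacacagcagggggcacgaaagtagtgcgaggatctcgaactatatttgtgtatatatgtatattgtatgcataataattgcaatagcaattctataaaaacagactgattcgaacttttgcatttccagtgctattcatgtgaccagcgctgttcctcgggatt
ND-SGDH, minus strand of chr3L:12138585-12138867: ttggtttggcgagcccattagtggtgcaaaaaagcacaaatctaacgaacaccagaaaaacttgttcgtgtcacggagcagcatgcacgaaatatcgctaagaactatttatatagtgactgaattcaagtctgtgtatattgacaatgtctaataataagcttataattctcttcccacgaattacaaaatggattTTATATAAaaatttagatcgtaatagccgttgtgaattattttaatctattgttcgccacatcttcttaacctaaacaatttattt
ND-51, minus strand of chr2L:6062758-6062988: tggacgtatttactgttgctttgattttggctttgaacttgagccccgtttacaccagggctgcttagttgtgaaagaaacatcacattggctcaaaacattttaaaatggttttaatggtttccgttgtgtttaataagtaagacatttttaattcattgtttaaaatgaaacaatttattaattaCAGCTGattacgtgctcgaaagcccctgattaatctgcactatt
ATPsynCF6, minus strand of chr3R:23356065-23356277: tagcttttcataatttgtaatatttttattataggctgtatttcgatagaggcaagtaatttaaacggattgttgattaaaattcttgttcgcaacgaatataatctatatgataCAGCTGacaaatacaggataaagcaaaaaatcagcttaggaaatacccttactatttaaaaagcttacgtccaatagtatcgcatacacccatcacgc
ND-42, plus strand of chr3R:22027481-22027708: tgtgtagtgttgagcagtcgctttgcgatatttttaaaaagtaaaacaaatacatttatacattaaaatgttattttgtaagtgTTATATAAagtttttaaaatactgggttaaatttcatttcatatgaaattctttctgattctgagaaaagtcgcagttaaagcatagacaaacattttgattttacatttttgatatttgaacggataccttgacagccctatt
COX8, minus strand of chr3L:21539482-21539682: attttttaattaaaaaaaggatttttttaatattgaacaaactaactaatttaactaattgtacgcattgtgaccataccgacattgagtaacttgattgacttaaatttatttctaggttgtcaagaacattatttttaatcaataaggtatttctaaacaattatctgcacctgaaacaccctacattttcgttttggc

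Of the 88 OXPHOS genes, 9 had a promoter peak in the list of the pair. They were ND-ASHI, ND-MWFE, ND-24, ND-SGDH, ND-51 and ND-42 of complex I, COX7C and COX5A of complex IV and ATPsynCF6 of complex V. This was 15.3% of the 59 OXPHOS genes with any candidate in that window, against 9.97% of all 10819 genes with a candidate, and 10.2% of the 88, against 7.74% of all 13945 genes. With 9 genes the excess over the background is a few genes, and no test of it was made. The excess was smaller under some stricter rules, given next, but not in the conservative list. Among the 500 peaks of highest signal, 3.41% of OXPHOS genes had a promoter peak, against 3.37% of all genes, and with summits nearer to the gene than to any other the shares were 5.68% and 5.54%. At a −log10 IDR of at least 3 they were 4.55% and 3.71%. The conservative list of the pair, with 1353 peaks, gave 9 of 56 (16.1%, against 9.31% of all genes with a candidate). That was 10.2% of the 88, against 7.15% of all genes. Of genes with a candidate, the list of replicate 1 gave 4 of 49 (8.16%, against 6.41%) and that of replicate 2 gave 6 of 52 (11.5%, against 9.38%). Of the 88, these were 4.55% in replicate 1, against 4.37% of all genes, and 6.82% in replicate 2, against 6.18%. Over the 4 lists, 11 genes had a peak in at least 1 list, 3 in all 4 lists (ND-ASHI, ND-MWFE and ND-24) and 77 in none. The list of the pair and the conservative list derive from the same 2 replicates, so the 4 lists are not independent.

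Complex I, whose subunits form a hydrophilic arm that oxidises NADH and a membrane arm that pumps protons, had 6 of the 9 peaks, at 6 of its 26 genes with a candidate (23.1%, against 9.97% of all genes), and holds 40 of the 88 genes. Without duplicates the share was 28.6% for complex I (6 of 21) and also for complex IV (2 of 7). In the conservative list, also without duplicates, it was 23.8% for complex I (5 of 21) and 50% for complex IV (3 of 6). The share of all genes with a candidate in that list was 9.31%. ND-ASHI, an accessory subunit of the membrane arm, had the highest signal of the 9. Its peak spanned X 6679235 to 6679538 with a signal of 196.5, rank 159 of 1488, and a −log10 IDR of 4.01. The highest candidate there had a signal of 93.5 in replicate 1 and 100.7 in replicate 2, and both were in the thresholded list of that replicate. The summit lay 269 bp upstream of a TSS of ND-ASHI and 253 bp upstream of a TSS of Fum1, the fumarase gene of the tricarboxylic acid (TCA) cycle, in an intron of Fum1. The printed run thus lies within 500 bp of starts of both genes, and the peak cannot be assigned to one of them.

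ND-MWFE, another accessory subunit of the membrane arm, followed with a signal of 125.4 at 2R 13158320 to 13158623, rank 367 and −log10 IDR 3.38. Its candidate had a signal of 57.9 in replicate 1 and 67.2 in replicate 2. The summit was 194 bp upstream of ND-MWFE and 27 bp upstream of TppII, which encodes tripeptidyl peptidase II, so it lay nearer to the neighbour. ND-24, an iron-sulphur subunit of the NADH-oxidising module, had a signal of 108.1 at X 17632016 to 17632319, rank 467 and −log10 IDR 3.18. The signal of its candidate was 47.4 in replicate 1 and 61.2 in replicate 2. Here the summit was 79 bp downstream of the TSS, in the 5′ UTR of ND-24, and the start of corolla, which encodes a protein of the synaptonemal complex, was 42 bp from that of ND-24 on the other strand. These 3 genes, with ND-ASHI first, were in the same order in both replicates, and their candidates in each replicate exceeded those of the 8 other genes with a peak, apart from ND-SGDH in replicate 2.

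ND-SGDH, a membrane-arm accessory subunit, had a peak of signal 98.6 at 3L 12138558 to 12138861, rank 532 and −log10 IDR 3.06. Its candidate had a signal of 31.6 in replicate 1, at percentile 90.8 of genes with a candidate and outside the thresholded list, and of 66.7 in replicate 2, at percentile 95.5 and inside the list. The summit was 126 bp upstream of ND-SGDH, inside the 283 bp printed above. ND-51, the subunit that binds NADH and its flavin cofactor, had a signal of 85.7 at 2L 6062747 to 6063050, rank 684 and −log10 IDR 2.84. The signal of its candidate was 41.0 in replicate 1 and 48.5 in replicate 2, and neither was in the thresholded list of its replicate. The summit was 142 bp upstream of ND-51 and 90 bp upstream of CG13994, within the 231 bp between them.

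ND-42, an accessory subunit of complex I, had the lowest of the 9 peaks, with a signal of 41.6 at 3R 22027386 to 22027689, rank 1446 and −log10 IDR 2.15. Its candidate had a signal of 15.7 in replicate 1, with a summit 3 bp downstream of the TSS, and of 33.8 in replicate 2, with a summit 171 bp upstream as in the pair. A second, lower summit of the pair, with a signal of 20.9 and a −log10 IDR of 2.15, lay 33 bp downstream of the TSS. The stronger summit was 58 bp upstream of Cchl, the gene for cytochrome c heme lyase, which attaches heme to the mobile electron carrier cytochrome c, and thus nearer to Cchl than to ND-42. At the conservative setting the same ND-42 candidate had a −log10 IDR of 0.736 and was not in the list.

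Complex IV had 2 peaks among 12 genes with a candidate (16.7%, against 9.97% of all genes). COX7C, a small nuclear subunit, had a signal of 58.7 at 2R 10048467 to 10048770, rank 1245 and −log10 IDR 2.63. The signal of its candidate was 23.2 in replicate 1 and 48.1 in replicate 2, and only the second was in a thresholded list. Its summit lay 266 bp downstream of the TSS of COX7C, in an intron, and exactly at the TSS of oys, a lysophospholipid acyltransferase gene that runs the other way across the start of COX7C. COX5A, a nuclear subunit of the matrix side, had a signal of 56.5 at 3R 11819364 to 11819667, rank 1296 and −log10 IDR 2.28. The signal of its candidate was 26.4 in replicate 1, at a summit 110 bp downstream of a TSS. It was 31.2 in replicate 2, at a summit 83 bp upstream of the nearest TSS as in the pair, and neither was in the list of its replicate. That summit of the pair lay in an intron of COX5A, downstream of the other TSS of the gene. The gene on the other side is glo, which encodes an RNA-binding protein that regulates nanos mRNA, with its TSS 96 bp from the summit.

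Complex V had 1 peak among 10 genes with a candidate, a share equal to that of all genes (9.97%). ATPsynCF6 encodes coupling factor 6, part of the stalk that joins the membrane and catalytic sectors of the enzyme. Its peak had a signal of 42.0 at 3R 23356013 to 23356316, rank 1445 and −log10 IDR 2.02. Its candidate had a signal of 34.4 in replicate 1, at percentile 92.1 of genes with a candidate and inside the thresholded list, and of 19.5 in replicate 2, at percentile 70.5 and outside the list. The summit in replicate 1 was 226 bp upstream of the TSS, the one in replicate 2 was 65 bp upstream and the one of the pair was 101 bp upstream. Sec13, a gene of the COPII coat and the nuclear pore, starts 214 bp away on the other strand.

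**Figure D1:**
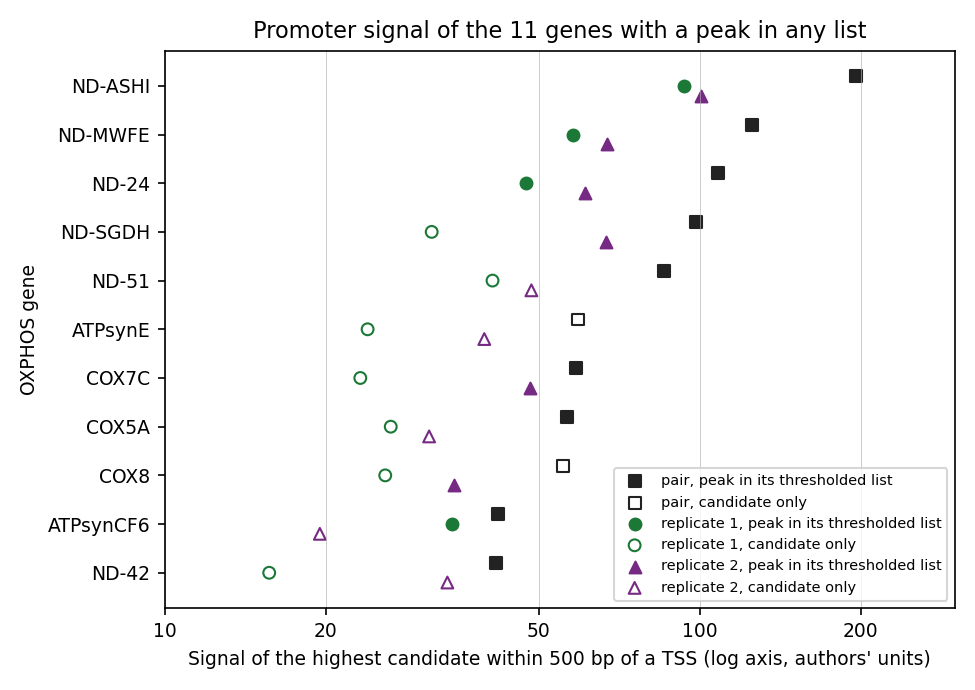
Signal of the highest candidate within 500 bp of a TSS (log axis, authors' units) for the 11 OXPHOS genes with a peak in any list, for the pair and for each replicate. Filled symbols are in the thresholded list of that row's pair or replicate and open ones are candidates only. The pair's values run from 41.6 at ND-42 to 196.5 at ND-ASHI, and values of the pair and of single replicates are on different scales.

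The other 2 genes had a peak only outside the main list. ATPsynE, a small subunit of the membrane sector of ATP synthase, had a peak of signal 59.3 in the conservative list, rank 1178 of 1353, with the summit 46 bp upstream and in the 5′ UTR of another of its transcripts. Its −log10 IDR was 2.04 at the conservative setting and at most 0.161 for any promoter candidate of the pair. The signal of its candidate was 23.9 in replicate 1 and 39.6 in replicate 2. COX8, a small subunit of complex IV, had a peak of signal 55.5 in the conservative list, rank 1259, with the summit 135 bp upstream, and was also in the list of replicate 2. Its −log10 IDR was 2.12 at the conservative setting and 1.68 for the pair. Its candidate had a signal of 25.8 in replicate 1 and 34.8 in replicate 2. Of the 9 promoter peaks of the pair, 7 were also in the conservative list, all except ATPsynCF6 and ND-42.

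Among the genes with no peak in any list, ATPsyngamma, the central rotating shaft of ATP synthase, came nearest to the threshold, with a −log10 IDR of 1.60 and a signal of 50.5 for the pair. Its candidate had a signal of 33.2 in replicate 1, at percentile 91.6, and of 12.5 in replicate 2, at percentile 38.5. The next 4 were ATPsynepsilonL (0.774), COX6B (0.601), UQCR-14L (0.423) and ATPsynCF6L (0.389), given as −log10 IDR, and 3 of these 4 are duplicates. No candidate of the pair lay within 500 bp of 29 OXPHOS genes, among them ATPsynbeta, the catalytic subunit of ATP synthase, SdhA, the flavoprotein of complex II, and ND-75, the largest subunit of complex I. A candidate was thus present at 67.0% of OXPHOS genes, against 77.6% of all genes. ND-ASHI at 269 bp and COX7C at 266 bp were the counted genes with the most distant summits. The nearest pair summits of genes not counted were 1517 bp from ND-39, 1729 bp from COX7CL and 1892 bp from ND-B22, and the one nearest to COX7CL is the peak counted for COX7C.

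Complexes II and III had no promoter peak in any of the 4 lists. Complex II had 5 genes with a candidate in the list of the pair, and complex III also had 5. At the share of all genes, 9.97%, less than 1 gene with a peak would be counted among 5, so these zeros are near the background. Without the duplicates, the highest candidates of complex III genes had signals between 24.0 and 26.1, close to the median of 24.3 over all genes with a candidate. Those of SdhB and SdhC, the iron-sulphur subunit and a membrane anchor of complex II, were 28.2 and 25.6, and that of SdhD was 6.39. None of the 17 duplicates with a candidate had a peak, against 9 of the 42 other genes with one (21.4%) and 9.97% of all genes. Of the 17, 15 had no TSS of another protein-coding gene on the other strand within 500 bp. Over all genes with a candidate and no such TSS, 5.80% had a peak. At these shares few peaks would be counted among 17, so this zero is also near the background. The median percentile of the highest candidate among all genes was 37.7 for duplicates and 55.5 for the other genes in the pair, 27.4 and 68.4 in replicate 1, and 54.2 and 58.2 in replicate 2. Over all OXPHOS genes with a candidate the median percentile was 53.98 in the pair, 54.8 in replicate 1 and 56.5 in replicate 2, and 34 of the 59 lay above the percentile of 50 in the pair.

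**Figure D2:**
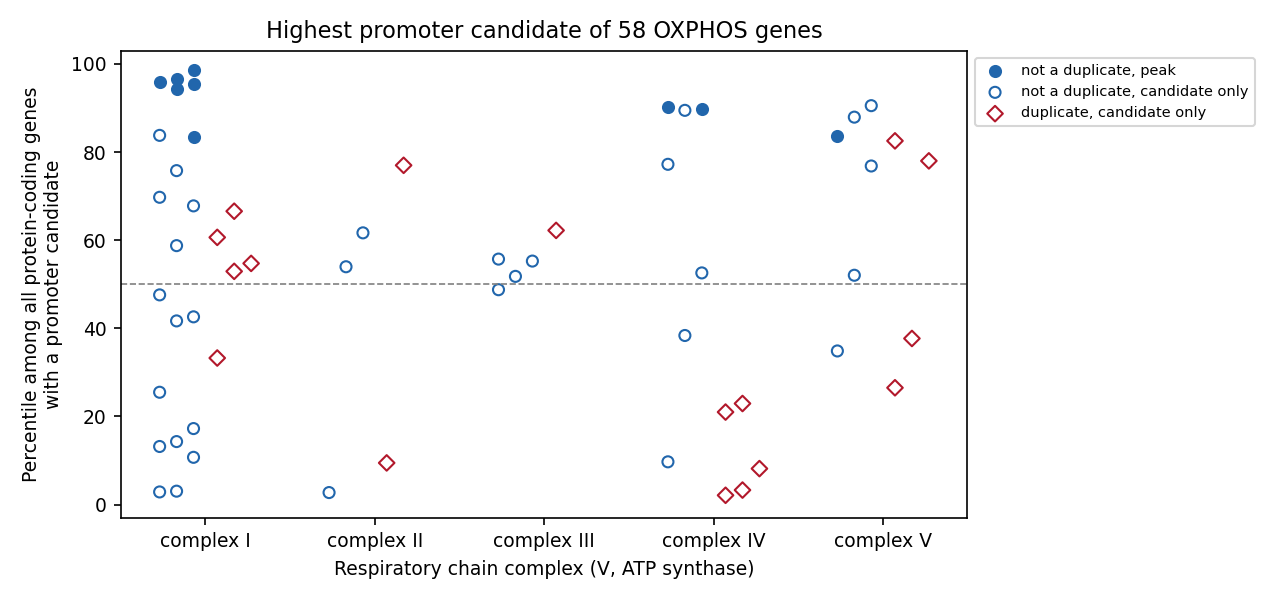
Percentile of the highest promoter candidate of the pair among all protein-coding genes with a candidate, for the 58 OXPHOS genes of complexes I to V with one, by complex. Filled circles have a promoter peak, open circles and diamonds do not, diamonds are duplicates, and the dashed line is the percentile of 50. ND-ASHI is highest at 98.6, and no diamond is filled.

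The replicates ranked OXPHOS promoters in a similar order. Over the 39 genes with a candidate in both replicates, Spearman's rank correlation between the signals was 0.697 and Pearson's r of their log2 values was 0.759. Over all 7295 such genes the values were 0.502 and 0.677, and over the 30 OXPHOS genes without a peak in the pair they were 0.501 and 0.520. Genes share the 2 libraries and are not independent, so these are descriptions. The value of 0.697 rests in part on the genes with a peak.

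Peaks of OXPHOS genes had a median signal of 85.7, against 93.4 over all 1079 genes with a promoter peak. Relative to the nearest TSS of the gene, their median position was 126 bp upstream, against 141 bp upstream. By this measure 7 of 9 were upstream, against 89.2% of all, and COX5A counts as upstream though its summit lay in an intron of the gene. The 9 summits lay between 269 bp upstream and 266 bp downstream. The highest candidates of all 59 OXPHOS genes were spread over both sides of the TSS, with 30 of 59 upstream. The median GC content in 201 bp around the 9 summits was 31.8%, with a range from 27.4% at ND-42 to 43.3% at COX7C. It was 34.3% over all 785 promoter peaks, 45.8% at the highest candidates of OXPHOS genes without a peak and 46.8% over all promoter candidates.

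**Figure D3:**
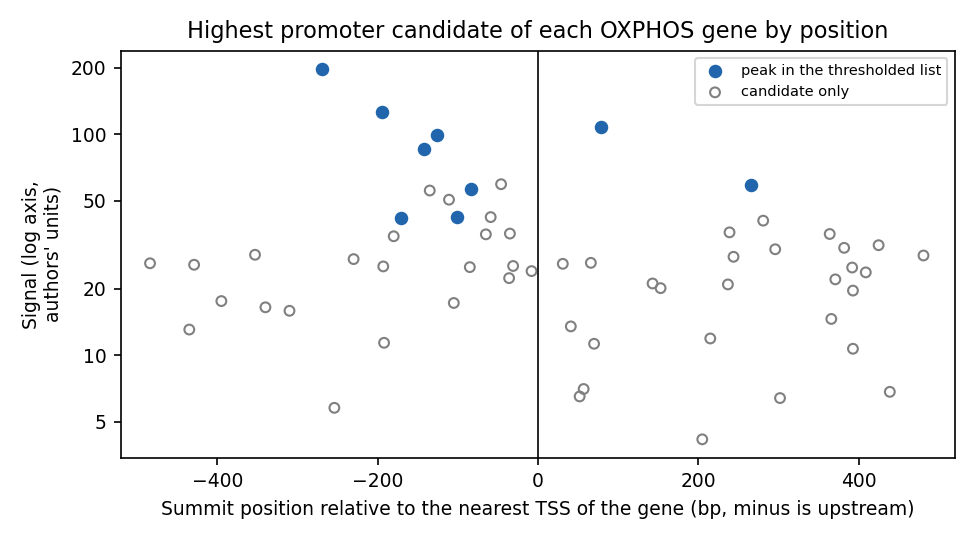
Signal (log axis, authors' units) against the position of the summit relative to the nearest TSS in bp, for the highest candidate of each of the 59 OXPHOS genes with one. Filled points are the 9 promoter peaks, 7 of them upstream, and open points are candidates outside the thresholded list, which lie on both sides of the TSS.

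All 9 peaks lay where another gene starts close by on the other strand. Such a TSS of another protein-coding gene was within 500 bp of a TSS for 40 of the 88 OXPHOS genes (45.5%), against 27.8% of all genes. Among genes with a candidate, 9 of 30 OXPHOS genes with such a neighbour had a peak and 0 of 29 without one. Over all genes the counts were 632 of 3109 (20.3%) with such a neighbour and 447 of 7710 (5.80%) without. At 5.80%, few peaks would be counted among 29 genes, so the zero without such a neighbour is near the background. Of mitochondrial ribosomal protein genes, 72.6% had such a neighbour, and 10 of their 11 genes with a peak had one, so the arrangement is not particular to OXPHOS genes. The 2 genes found outside the main list, ATPsynE beside Afti and COX8 beside VhaM9.7-b, a gene of the vacuolar proton pump, have one too, so all 11 do. In 10 of the 11 the starts point away from each other, and at COX7C they overlap. Only 3 of the 24 duplicates have such a neighbour, so the difference between duplicates and other genes moves with promoter arrangement, and its part in the counts was not tested. By the distance to the highest summit, 4 of the 9 peaks were nearer to the OXPHOS gene (ND-24, ND-SGDH, COX5A and ATPsynCF6) and 5 were nearer to the neighbour.

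**Figure D4:**
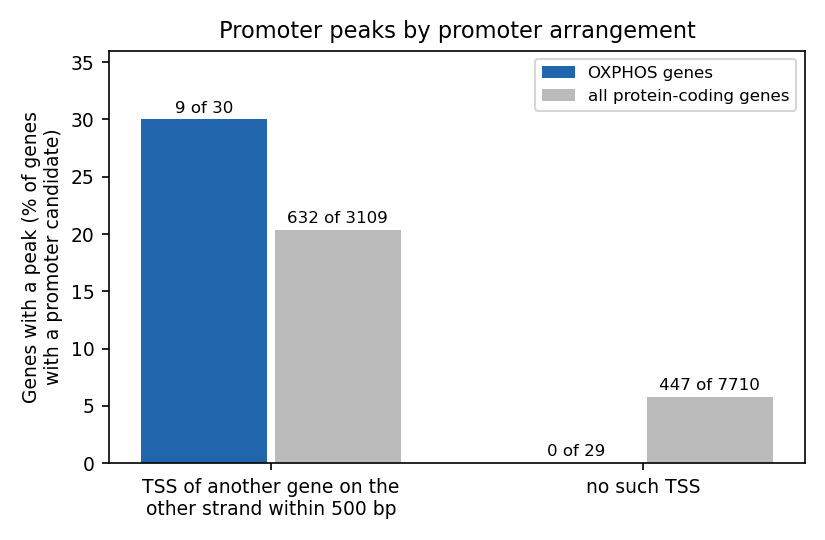
Share of genes with a promoter peak in the list of the pair, in percent of genes with a promoter candidate, for OXPHOS genes (left bar) and all protein-coding genes (right bar), by whether another protein-coding gene starts on the other strand within 500 bp. The bars are 9 of 30 and 632 of 3109 with such a neighbour, and 0 of 29 and 447 of 7710 without. At the share of all genes without such a neighbour, few of 29 genes would have a peak.

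Promoter sequence of OXPHOS genes was searched for 10 words on both strands, from 250 bp before to 50 bp after each TSS. Motif 1, a core promoter word (GGTCACAC), was in 22.7% of the 88 genes, against 8.71% of all genes, and CAGCTG was in 31.8%, against 22.3%. The NRG element in any of its forms TTACGTAA, TTATATAA and TTACATAA was in 13.6%, against 6.41%, and the DNA replication-related element DRE (TATCGATA) in 14.8%, against 10.2%. In mitochondrial ribosomal protein genes, CAGCTG (56.2%) and DRE (21.9%) were more frequent than in OXPHOS genes. Motif 1 (11.0%) and the NRG element (9.59%) were less frequent there. GAGAGA, bound by the GAGA factor, was in 7.95%, against 17.1%, and the E-box CACGTG in 4.55%, against 5.34%. The core of a Pax2/5/8 site (GTCACGC) was in 1.14%, which is ATPsynbeta alone, against 2.05%, and the vertebrate NRF1 site in 0%, against 0.308%. The NRG share of OXPHOS genes depended on the window. It was 17.0%, against 3.11% of all genes, within 100 bp of each TSS, and 6.82%, against 5.18%, with the 5′-most TSS of each gene only. Within 100 bp of each TSS the DRE share was 9.09%, against 8.49%. None of these words contains another, and a match is a description of letters and not a site.

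Around the summits themselves few of these words were found. Within 100 bp of the 9 summits, TTATATAA was in ND-SGDH and ND-42, as capitals above, which is 2 of 9 windows, against 3.82% of all 785 promoter peaks. It starts 40 bp past the summit at ND-SGDH and 27 bp past it at ND-42, toward the OXPHOS gene. CAGCTG was in ATPsynCF6, 3 bp from the summit, and in ND-42, at 66 bp from the summit on the side of Cchl and outside the printed run, which is 2 of 9 against 10.4%. The capitals in ND-51 begin 98 bp from the summit and run past the 100 bp limit. GTCACGC was in ND-MWFE, 80 bp from the summit, which is 1 of 9 against 1.40%. No motif 1, DRE, CACGTG or GAGAGA was within 100 bp of any of the 9 summits. These words were in 1.78%, 4.46%, 2.29% and 7.39% of all promoter peaks, in that order, so less than 1 window of 9 would hold each at those shares. The windows of ND-ASHI and COX8 held none of the 10 words.

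Genes of the same pathway that the symbol rule does not reach were counted in the same way. Apart from Fum1, whether another gene starts nearer to these summits is not given here, so a peak may belong to a neighbour. Of 8 other subunits and electron carriers with a candidate, 3 had a peak. These were blw, the alpha subunit of ATP synthase, with a signal of 107.3, levy, a subunit of complex IV, with 130.9, and Cyt-c-d, a cytochrome c gene, with 122.2 at 417 bp downstream. Of 13 TCA cycle enzymes, 2 had a peak, which were Fum1, by the peak it shares with ND-ASHI, and Idh3g, a subunit of NAD-dependent isocitrate dehydrogenase, with 113.0. Of 9 assembly factors, 3 had a peak. CIA30, a complex I assembly factor, had a signal of 607.0, rank 14 of 1488, above every OXPHOS subunit gene, while Cox17, a copper chaperone of complex IV, had 58.0 and l(2)37Bb had 55.1. Of 10 genes for maintenance and transcription of mitochondrial DNA, only mtSSB, the single-stranded DNA-binding protein, had a peak, with 55.9. Mitochondrial ribosomal protein genes had a peak at 11 of 56 (19.6%) with a median signal of 172.3, and cytoplasmic ribosomal protein genes at 26 of 74 (35.1%) with a median signal of 83.8. OXPHOS genes, at 15.3%, lay between the 9.97% of all genes and these groups.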

How the data were processed

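ChIP-seq peak lists of 2 biological replicates of Poxn-eGFP embryos, on dm6 per the labels, were used as deposited. Signal is the enrichment value that the authors deposited for each peak, with its normalisation not given in the sources used here, nor are read depth, aligner and peak caller. The −log10 of the global IDR is the authors' deposited value in the ranked lists. In the pair, 1606 candidates reached 2, and 1488 of them are in the thresholded list. A summit is the start plus the peak offset plus 1. Both replicates had equal standing as 1 group, without a test.

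Genes and TSSs were taken from Ensembl release 115 (BDGP6.54), and bases from RefSeq's Release 6 genome, which is dm6. Calculations used Python 3.11.15, pandas 2.3.3, numpy 2.4.6 and scipy 1.17.1, with figures by matplotlib 3.10.9. The gene assignment was checked on simulated data, and the windows and strands of the word search were not. The members, lists and words were chosen with earlier results of these data known. Named genes are members with a peak in any list, the 5 next by IDR, listed pathway genes with a peak in the pair, and neighbours that share a promoter. ATPsynbeta, SdhA, SdhB, SdhC, SdhD, ND-75, ND-39, COX7CL and ND-B22 were named after their values were seen. Of 61 listed pathway symbols, 8 were unmatched and 2 matched by synonym. Alternatives were the conservative list, each replicate, other TSS windows, a stricter IDR, the highest peaks, the nearest gene, other sequence windows and, added after seeing the data, ND-MNLL as a duplicate.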

Additional observations from a re-analysis of the deposited data

How the results depend on the processing

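No value changed sign under the alternatives. The 9 OXPHOS genes with a peak became 4 at a −log10 IDR of at least 3 (4.55%, against 3.71% of all genes), 3 among the 500 peaks of highest signal (3.41% against 3.37%) and 5 where the summit had to be nearer to the member than to any other gene (5.68% against 5.54%); ND-42 counts there through its second, weaker summit. At that stricter IDR, complex IV had 0, complex V 0, the genes that are not duplicates 4, assembly factors 1 and mitochondrial DNA genes 0. With a window of 250 bp, complex IV had 1, TCA enzymes 1 and mitochondrial DNA genes 0, where 6.20% of all genes had a peak. The conservative list gave 1 assembly factor and 0 mitochondrial DNA genes, where 7.15% of all genes had a peak. Taking either replicate alone gave 4 to 6 OXPHOS genes, 3 to 4 of complex I, 0 to 2 of complex IV, 0 to 1 of complex V, 4 to 6 that are not duplicates, 1 to 3 assembly factors and 0 to 1 mitochondrial DNA genes. The share of OXPHOS genes was 4.55% in replicate 1, against 4.37% of all genes, and 6.82% in replicate 2, against 6.18%. On the scale of each replicate, the median signals were 52.7 to 63.9. In the replicates the median position was −202 to −136 bp and the median GC content 30.1% to 31.6%. The median GC was 30.7% within 50 bp of the summits, and the NRG share was 6.82% with the 5′-most TSS only. The depth of either library is unknown, and its part in these counts was not tested. No paired analysis was possible because there is only 1 group.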
